A study of Mus musculus with 53 samples.

Results

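The enzymes that oxidise choline, that make serine and that pass its carbon on to folate were followed through 4 regions of the brain in SCA3 mice and their wild-type controls. The genes were chosen by symbol, with their SCA3 against wild-type values already known. The list had 7 genes: Chdh and Aldh7a1 for choline, Phgdh, Psat1 and Psph for serine, and Shmt1 and Shmt2 for the step from serine to glycine. Of these, 6 had a row among the 12372 genes of the count table. Shmt1, the cytosolic enzyme of the last step, had none and is not analysed here.

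The samples were 53 RNA sequencing libraries of brainstem, cerebellum, cortex and striatum from 14 male mice aged 74 to 77 weeks. The 6 SCA3 mice were MJD84.2 mice, hemizygous for a transgene that holds all of human ATXN3, its CAG repeat expanded, and expresses it ubiquitously from its own promoter beside mouse Atxn3, and the 8 controls were wild-type C57BL/6 mice; none was treated, and all had earlier been through motor tests. Brainstem held 8 wild-type and 6 SCA3 libraries, cerebellum and cortex 7 and 6 each, and striatum 8 and 5, with 1 library per mouse and region. The transgene comes from 1 mouse line, and reads from human ATXN3 were not analysed here.

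Choline is needed for phosphatidylcholine and acetylcholine. Cells that do not need it for these can oxidise it in mitochondria, first by choline dehydrogenase, encoded by Chdh, and then to betaine, an osmolyte and methyl donor. Aldh7a1 encodes an aldehyde dehydrogenase that can carry out the betaine aldehyde step and also works in lysine breakdown. Serine is made from the glycolytic intermediate 3-phosphoglycerate by Phgdh, Psat1 and Psph in that order, in the brain mostly in astrocytes, and serves as the source of glycine, D-serine, phospholipids and sphingolipids. Shmt2, the mitochondrial serine hydroxymethyltransferase, turns serine into glycine and hands a one-carbon unit to folate.

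Depth and RNA quality varied between libraries. Library totals ran from 31.7 to 76.7 M counts and RNA integrity numbers (RIN) from 5.7 to 9.0. In brainstem, RIN was 7.24 ± 0.42 in wild-type (SD, n = 8) and 7.78 ± 0.26 in SCA3 libraries (SD, n = 6). The measured regional markers were mostly highest in their own region. The sum over 6 striatal markers was 1143 to 4992 CPM (median 2471) in wild-type and 3050 to 4598 CPM (median 4321) in SCA3 striatum. CPM is a count relative to the library total, scaled by TMM, in units of counts per M. In cortex the same sum reached 1828 CPM in wild-type and 2170 CPM in SCA3 libraries. The sum over 2 cortical markers varied from 363 to 1718 CPM within wild-type cortex, and reached 647 CPM in wild-type and 658 CPM in SCA3 striatum. In wild-type mice both sums thus overlapped between cortex and striatum. None of the 5 brainstem markers had a row, nor had Gabra6 and Pcp2 for cerebellum. The wild-type striatal libraries of mice 7267058 and 7267059 stood apart, with summed thalamic markers of 992 and 1682 CPM where the other striatal libraries had 56.0 to 326 CPM. Striatal results whose call changed without these 2 are therefore given, with some others. In brainstem, wild-type mice 7267055 and 9083373 and SCA3 mice 9083514 and 9083515 had thalamic sums of 683 to 787 CPM where the other 10 libraries had 340 to 518 CPM, and the results that changed without these 4 are given too. In cerebellum the sum over 3 choroid plexus markers was 19.6 to 2118 CPM (median 140) in wild-type and 658 to 1998 CPM (median 1138) in SCA3 libraries. Its part in the cerebellar SCA3 values was not tested. In pieces of tissue, fewer cells of a type and less RNA per cell cannot be told apart.

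The stretches before the transcription starts of Psat1, Phgdh and Shmt2 are shown because these genes act in 1 pathway and differed in their pattern: Psat1 was higher in SCA3, Phgdh varied with the mouse, and Shmt2 did neither. They are RefSeq sequences of GRCm38, taken from the table's 250 bases before the first annotated start and limited to bases outside annotated exons, written 5′ to 3′ along the gene. Capitals mark the 5 motifs searched on both strands: CCAAT (the CCAAT box), GGGCGG (the GC box), CACGTG (an E box), TATAAA (the TATA box) and TGATGNAA (the core of a composite element of the amino acid response).
Psat1, chr19:15925060-15925309, minus strand: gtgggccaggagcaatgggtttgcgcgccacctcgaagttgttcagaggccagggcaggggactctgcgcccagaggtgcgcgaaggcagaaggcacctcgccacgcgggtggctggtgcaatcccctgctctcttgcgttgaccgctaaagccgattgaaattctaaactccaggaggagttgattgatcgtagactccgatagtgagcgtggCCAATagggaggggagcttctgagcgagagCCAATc
Phgdh, chr3:98339991-98340219, minus strand: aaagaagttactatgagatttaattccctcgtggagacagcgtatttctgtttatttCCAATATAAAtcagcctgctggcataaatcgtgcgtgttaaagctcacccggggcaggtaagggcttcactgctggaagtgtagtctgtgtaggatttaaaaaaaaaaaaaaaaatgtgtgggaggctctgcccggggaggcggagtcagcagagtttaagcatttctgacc
Shmt2, chr10:127522445-127522694, minus strand: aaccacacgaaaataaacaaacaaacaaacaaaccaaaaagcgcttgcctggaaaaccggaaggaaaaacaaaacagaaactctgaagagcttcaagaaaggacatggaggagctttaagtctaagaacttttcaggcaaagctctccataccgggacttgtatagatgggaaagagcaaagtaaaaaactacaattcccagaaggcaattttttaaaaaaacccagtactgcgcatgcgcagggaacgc
Psat1 had 2 CCAAT boxes, starting 36 and 6 bases before the start. Phgdh had 2 as well, the farther of which overlapped a TATAAA in the same run of capitals, while the nearer began 23 bases before the start and ran into an annotated exon, so its letters are not all shown. The Shmt2 window held none of the 5 motifs. CCAAT was present in 33.8% of 32851 promoter windows of the same length, GGGCGG in 32.7%, TATAAA in 12.4%, CACGTG in 6.02% and TGATGNAA in 3.45%. The window before the first Chdh start held GGGCGG 2 times, and 246 of its 250 bases lay within annotated exons or the gene itself, so it is not printed. TGATGNAA was found in none of the windows searched for Chdh, Psat1, Phgdh, Psph and Shmt2. A match in these letters is a description of the sequence.

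Chdh (chromosome 14, 30008901 to 30040468, plus strand of GRCm38), the enzyme that commits choline to oxidation, was the least abundant of the 6 genes per length. In wild-type brainstem it had 12.5 to 18.4 CPM with a median of 17.6 CPM over 8 mice, and in SCA3 brainstem 31.2 to 40.4 CPM with a median of 33.2 CPM over 6 mice. The lowest SCA3 library thus lay well above the highest wild-type library. The 2 lowest wild-type values, 12.5 and 15.2 CPM, and the lowest SCA3 value belonged to libraries with high thalamic markers, and the other wild-type libraries had 17.3 to 18.4 CPM. In wild-type cerebellum its level was 6.87 to 9.61 CPM (median 8.95) and in SCA3 cerebellum 11.9 to 15.6 CPM (median 13.1). Wild-type cortex had 6.57 to 10.5 CPM (median 9.33) against 12.3 to 19.2 CPM (median 16.3) in SCA3 cortex. In striatum the 8 wild-type mice had 11.04 to 19.3 CPM (median 13.7), and the 5 SCA3 mice had 23.7, 23.9, 27.0, 27.1 and 33.0 CPM. The genotypes did not overlap in any of the 4 regions: all 23 SCA3 libraries lay above every wild-type library of their region.

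**Figure D1:**
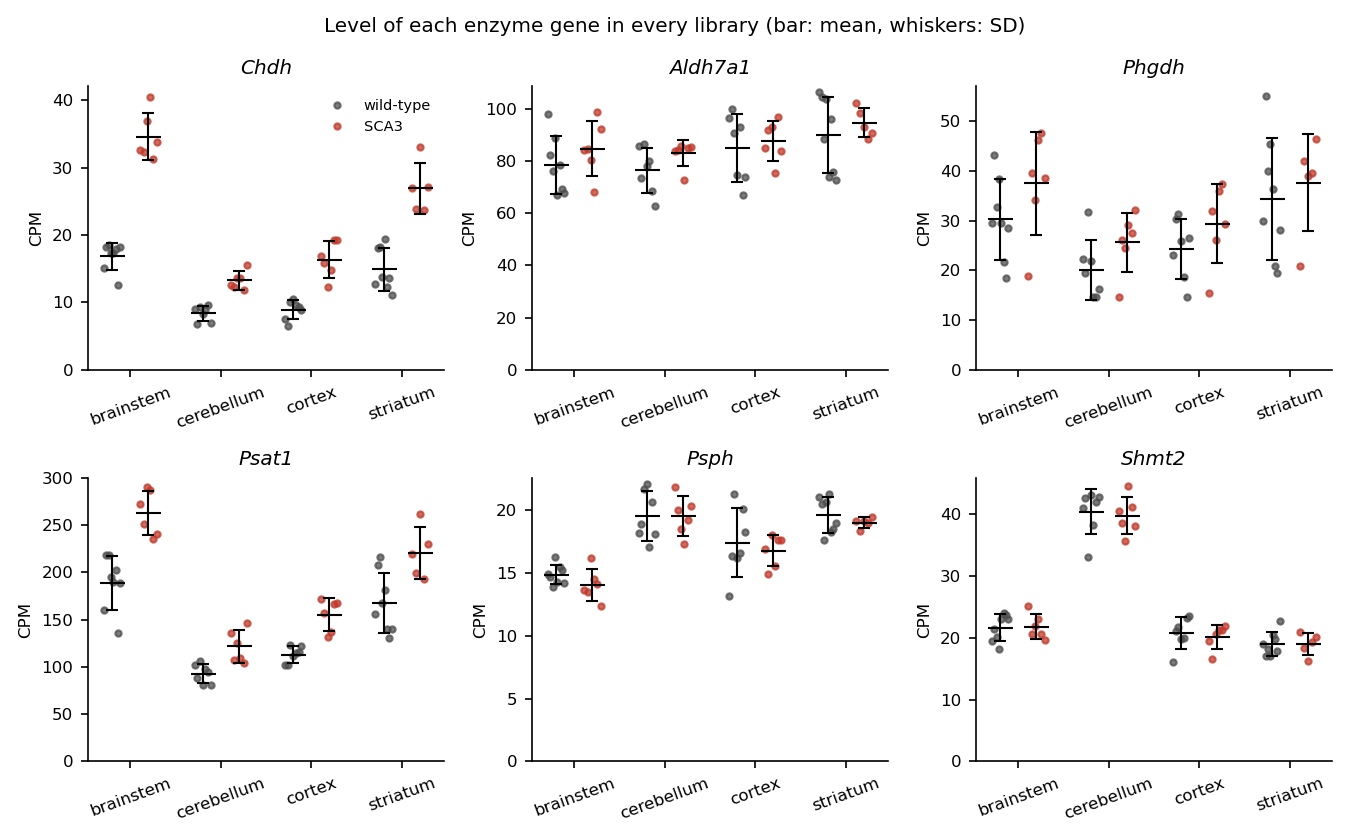
Level of each gene in CPM (y axes, from 0) in every library, by region and genotype; each point is 1 mouse, the bar is the mean and the whiskers are the SD. SCA3 libraries lie above all wild-type libraries for Chdh in each region and for Psat1 in brainstem and cortex, while the points of Aldh7a1, Phgdh, Psph and Shmt2 overlap.

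Because the genes were chosen with this contrast known, the SCA3 against wild-type values are a description and nothing is read from their calls. For Chdh the SCA3 level was 2.05 times the wild-type level in brainstem (log2 fold change 1.04, SE 0.12), 1.83 times in cortex (0.87, SE 0.12), 1.81 times in striatum (0.85, SE 0.12) and 1.58 times in cerebellum (0.66, SE 0.12). At a false discovery rate (FDR) below 0.05 in edgeR, 2 of the 6 genes were called in brainstem, where 1.92% of all genes were called, 1 in cerebellum (0.0647%), 2 in cortex (0.154%) and 2 in striatum (7.54%). Chdh was the gene called in all 4 regions, as were 0.0485% of the table, and Psat1 was the second in brainstem, cortex and striatum. Ranges that did not overlap were found for 1.38% of all genes in brainstem, 0.234% in cerebellum, 0.251% in cortex and 0.655% in striatum, with SCA3 the higher group for 0.768%, 0.129%, 0.170% and 0.242%. Without the 2 striatal libraries high in thalamic markers, the striatal log2 fold change of Chdh was 0.96, and without the 4 brainstem libraries the brainstem value was 0.99. Over all alternatives other than leaving out a mouse, including the mice of 1 number series alone, it was 0.99 to 1.09 in brainstem, 0.65 to 0.70 in cerebellum, 0.85 to 0.88 in cortex and 0.85 to 0.96 in striatum.

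Psat1 (chromosome 19, 15905123 to 15925059, minus strand), the aminotransferase of the second step of serine synthesis, was the most abundant of the genes per length. Wild-type brainstem had 136 to 219 CPM (median 193) and SCA3 brainstem 235 to 290.1 CPM (median 262), with no overlap. The 4 brainstem libraries with high thalamic markers were the 2 lowest of each genotype, at 136 and 161 CPM in wild-type and 235 and 241 CPM in SCA3. In cerebellum the range was 81.2 to 106 CPM (median 94.5) in wild-type and 104 to 146 CPM (median 118) in SCA3, and 5 of 6 SCA3 libraries exceeded the wild-type maximum. In cortex 102 to 123 CPM (median 115) in wild-type stood against 131 to 172 CPM (median 162) in SCA3, again with no overlap. In striatum the wild-type libraries had 131 to 216 CPM (median 162), and the 5 SCA3 libraries had 193, 199, 220.0, 229.8 and 262 CPM, of which 3 were above every wild-type library. The 2 highest wild-type striatal values, 208 and 216 CPM, belonged to the libraries with high thalamic markers.

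For Psat1 the SCA3 level was 1.39 times wild-type in brainstem (log2 fold change 0.48, SE 0.10), 1.37 times in cortex (0.46, SE 0.11), 1.32 times in striatum (0.40, SE 0.11) and 1.31 times in cerebellum (0.39, SE 0.11). Each ratio was smaller than that of Chdh in the same region, a difference that was not tested. The striatal value was 0.53 without the libraries of mice 7267058 and 7267059, and the brainstem value 0.44 (FDR 0.018) without the 4 brainstem libraries high in thalamic markers. The cortical call, with an FDR of 0.012, was lost in limma-voom without a block (FDR 0.056) and with the mouse as a block (FDR 0.081), in the largest mouse number series, which holds 27 libraries (FDR 0.54), and when SCA3 mouse 7267054, 7267056, 9083514 or 9083515 was left out (FDR 0.054 to 0.11). In cerebellum the FDR was 0.23, and 0.022 in a fit of the cerebellar libraries alone. The striatal call, with an FDR of 0.0092, was lost in a fit of the striatal libraries alone (0.40, FDR 0.15) and in the largest series (0.51, FDR 0.15).

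The other 4 genes showed smaller or less certain differences. Phgdh (chromosome 3, 98313171 to 98339969, minus strand), the first enzyme of serine synthesis, had log2 fold changes of 0.35 in cerebellum, 0.31 in brainstem, 0.27 in cortex and 0.13 in striatum, with SE of 0.23 to 0.24, so that every 95% interval included 0 and reached up to 0.59 to 0.81. Without the 4 brainstem libraries high in thalamic markers the brainstem value was 0.10. Psph (chromosome 5, 129765558 to 129787443, minus strand), the phosphatase that releases serine, had values of -0.08 in brainstem, -0.06 in cortex, -0.04 in striatum and -0.00 in cerebellum, each with an SE of 0.08, and 95% intervals between -0.23 and 0.15. For Shmt2 (chromosome 10, 127517123 to 127522444, minus strand) they ran from -0.04 in cortex to 0.01 in brainstem, with intervals between -0.21 and 0.17. Aldh7a1 (chromosome 18, 56524722 to 56572991, minus strand) had 0.04 in cortex to 0.12 in cerebellum, with SE of 0.10 and intervals between -0.15 and 0.32.

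**Figure D2:**
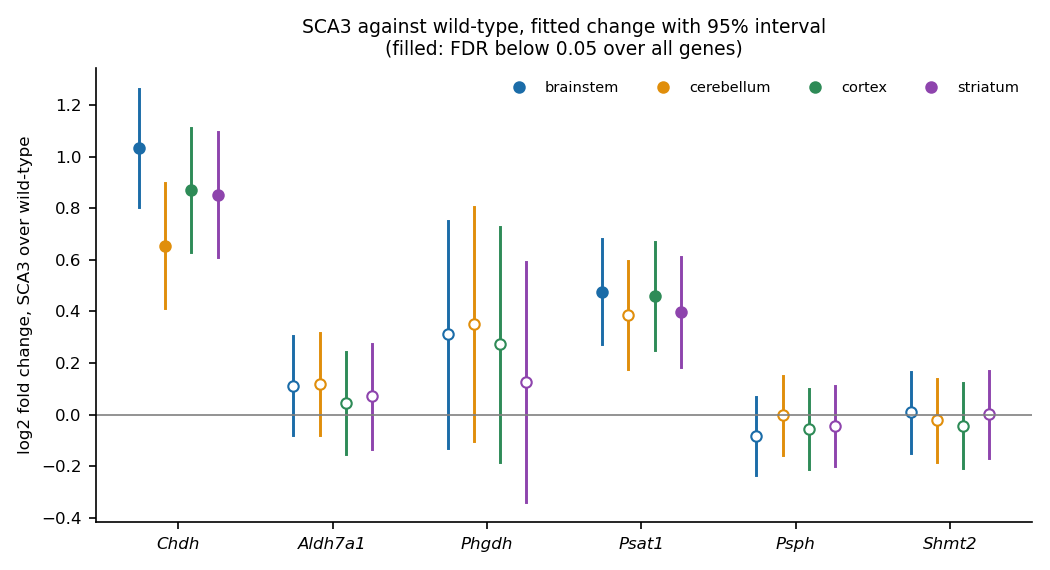
Fitted log2 fold change of SCA3 over wild-type (y axis) for the 6 genes in 4 regions; points are estimates from the fit of all 53 libraries, lines are 95% intervals and filled points have an FDR below 0.05 over all genes. Chdh is filled in 4 regions and Psat1 in 3, and the intervals of Phgdh are the widest.

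Whether the SCA3 difference varied with region was tested for all genes together. The test is built from the SCA3 against wild-type contrasts that were known when the 6 genes were chosen. For them its outcome is therefore a description too. Of the 12372 genes, 0.218% were called for genotype by region, and none of the 6 was among them. The FDR was 0.78 for Chdh (unadjusted p = 0.17 by edgeR's likelihood ratio test) and above 0.99 for the others. No alternative fit called any of the 6 either.

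Levels by region were compared between the wild-type groups. The SCA3 libraries entered these tests only through the spread of each gene, which was estimated over all 53 libraries. Leaving out an SCA3 mouse can therefore change a call. Over the 6 genes and 6 pairs of regions, 21 of 36 tests passed an FDR of 0.05. The share of all genes called was 72.6% between brainstem and cerebellum, 65.4% between brainstem and cortex, 64.2% between brainstem and striatum, 69.7% between cerebellum and cortex, 69.5% between cerebellum and striatum, and 34.4% between cortex and striatum. By direction, 37.6% of genes were higher and 35.0% lower in brainstem than in cerebellum, 31.1% higher and 34.3% lower in brainstem than in cortex, and 35.3% lower in cerebellum than in striatum. Differences between regions were thus common in this table, and the count for the 6 genes is read against that.

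The serine synthesis enzymes did not share a regional order. Psat1 averaged 189 ± 28.1 CPM in brainstem (SD, n = 8), 168 ± 32.0 in striatum (n = 8), 113 ± 8.71 in cortex (n = 7) and 93.0 ± 9.80 in cerebellum (n = 7). Brainstem and striatum, neighbours in this order, did not pass the test (log2 difference 0.17, SE 0.10, FDR 0.10), and the other pairs did; cerebellum against cortex (-0.28, FDR 0.010) lost its call without wild-type mouse 9083375 (-0.23, FDR 0.057), and cortex against striatum, at -0.57 (FDR 4.1e-07), lost it in the largest mouse number series (-0.35, FDR 0.067). Without the 2 striatal libraries high in thalamic markers brainstem did pass against striatum (0.31, FDR 0.0024), and likewise without the 4 brainstem libraries (0.27, FDR 0.0086). Phgdh averaged 20.1 ± 6.02 CPM in cerebellum, 24.3 ± 6.03 in cortex, 30.2 ± 8.07 in brainstem and 34.4 ± 12.2 in striatum. Striatum and brainstem did not pass the test (FDR 0.44), and without the 2 striatal libraries high in thalamic markers the striatal mean was 30.0 ± 9.74 CPM (SD, n = 6) and the log2 difference of brainstem from striatum went from -0.19 to 0.01. Cerebellum fell below striatum by 0.77 (SE 0.22, FDR 0.00078) and below brainstem by 0.59 (SE 0.22, FDR 0.011) on the log2 scale. Psph, in contrast, was lowest in brainstem, at 14.9 ± 0.77 CPM, against 19.6 ± 1.42 in striatum, 19.5 ± 1.956 in cerebellum and 17.4 ± 2.73 in cortex. Brainstem differed from each of these (log2 -0.40, -0.39 and -0.23, FDR 9.6e-08, 2e-07 and 0.0033). Cerebellum also exceeded cortex (0.16, FDR 0.044), but not without mouse 7267054, 7267055, 7267056, 7267058, 9083371 or 9083514 (FDR 0.050 to 0.22), nor with libraries of RIN 7 or more (FDR 0.050) or in the largest series (FDR 0.25), and cortex against striatum (-0.17, FDR 0.062) passed with the quasi-likelihood test (FDR 0.049), DESeq2 (0.034), RLE size factors (0.048) and the series covariate (0.034), and once mouse 7267059, 9082857 or 9083373 was left out (FDR 0.021 to 0.041).

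Since the same mice gave several regions, the pairing by mouse was put into a blocked fit of the wild-type libraries. It called 24 of the 36 pairs. The added calls were for Phgdh: striatum exceeded cortex by 0.44 (FDR 6.8e-06), brainstem exceeded cortex by 0.29 (FDR 0.0021) and cortex exceeded cerebellum by 0.22 (FDR 0.024) on the log2 scale, where the unblocked fit had FDRs of 0.060, 0.19 and 0.27. The first of these also passed without SCA3 mouse 7267054 (FDR 0.024). With the mouse as a random block in limma-voom, 23 pairs were called, among them cortex against striatum for Psph (-0.17, FDR 0.033) and Phgdh (-0.47, FDR 0.045).

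Shmt2 was distinguished by cerebellum. It had 40.4 ± 3.64 CPM there (SD, n = 7), against 21.6 ± 2.16 in brainstem (n = 8), 20.8 ± 2.52 in cortex (n = 7) and 19.0 ± 1.91 in striatum (n = 8). The cerebellar level was 1.86, 1.94 and 2.12 times the other regions (FDR 7.3e-30, 2.6e-31 and 2.7e-43). Brainstem also exceeded striatum by 0.19 (FDR 0.020), a call lost without wild-type mouse 7267058, 9083372 or 9083373 (FDR 0.059 to 0.092), without the 2 striatal libraries high in thalamic markers (0.16, FDR 0.080) and with libraries of RIN 7 or more (FDR 0.055). The same elevation of cerebellum was present in SCA3 mice, at 39.8 ± 3.03 CPM (SD, n = 6) against 19.0 to 21.8 CPM on average in the other regions.

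Chdh followed the order of Psat1. Its wild-type level was 16.9 ± 2.02 CPM in brainstem (SD, n = 8) and 14.9 ± 3.15 in striatum (n = 8), and lower in cortex, at 8.93 ± 1.42 (n = 7), and cerebellum, at 8.42 ± 1.12 (n = 7). Brainstem exceeded cerebellum 2.00 times (FDR 5.8e-17) and cortex 1.88 times (FDR 3.8e-14). Brainstem against striatum did not pass the threshold (0.18, SE 0.11, FDR 0.15), but did without the 2 striatal libraries named above (0.28, FDR 0.021) and without the 4 brainstem libraries (0.26, FDR 0.039), and cortex against cerebellum did not pass (FDR 0.52). Aldh7a1 was the flattest across regions, from 76.3 ± 8.78 CPM in cerebellum to 90.1 ± 14.5 in striatum. Its striatal level passed against cerebellum (0.24, FDR 0.018) and brainstem (0.20, FDR 0.045), and both calls were lost without the striatal libraries high in thalamic markers (FDR 0.060 and 0.12), with libraries of RIN 7 or more (FDR 0.16 and 0.34) and in the largest series (FDR 0.34 and 0.24). The call against brainstem was also lost without mouse 7267054, 7267056, 7267058, 7267059, 9082857, 9083372 or 9083515 (FDR 0.053 to 0.097), in limma-voom (FDR 0.054) and with RLE size factors (FDR 0.050), and the call against cerebellum with RIN as a covariate (FDR 0.056).

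Levels of different genes were compared only per length, as CPM per kilobase of annotated exon. In wild-type brainstem Psat1 had 64.3 ± 9.58, Aldh7a1 18.4 ± 2.58, Phgdh 16.0 ± 4.26, Shmt2 9.39 ± 0.94, Psph 8.59 ± 0.44 and Chdh 2.86 ± 0.34 CPM per kilobase (SD, n = 8). The transcript of the second step of serine synthesis was thus several times more abundant than those of the steps before and after it. In SCA3 brainstem Chdh had 5.86 ± 0.59 CPM per kilobase (SD, n = 6) and remained the lowest. In cerebellum, where Psat1 was lowest (31.7 ± 3.34) and Shmt2 highest (17.5 ± 1.58), Phgdh and Psph had similar levels of 10.6 ± 3.18 and 11.3 ± 1.13 CPM per kilobase (SD, n = 7).

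Reads that could come from more than 1 gene were left out of the counts, since the authors kept reads aligned to 1 place and HTSeq by default does not count a read over exons of more than 1 gene. The levels per length can therefore be too low, by an amount that was not estimated. Counting took no account of strand, and Chdh overlaps exons of Cacna1d on the other strand over 589 bases, Psph those of Cct6a over 452, Aldh7a1 those of Phax over 300 and Shmt2 those of Ndufa4l2 over 32. Of the stretches of read length in Phgdh coding transcripts, 29.6% also occurred in transcripts of 6 pseudogenes, so that reads from them can have more than 1 place to align. For Psph 15.7% and for Chdh 8.05% of such stretches were shared with the overlapping gene, and for Psat1 none.

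Chdh and Psat1 varied together among mice of the same group. After the mean of each region and genotype group was subtracted from log2 CPM, their deviations had a Pearson r of 0.81 (Spearman rho 0.82) over 53 libraries, and 0.78 without the 2 libraries farthest out in Psat1. By region r was 0.91 in brainstem (14 libraries), 0.69 in cerebellum (13), 0.83 in cortex (13) and 0.87 in striatum (13). Without the libraries high in thalamic markers it was 0.63 in brainstem (10 libraries) and 0.81 in striatum (11). No p is given, since the 53 libraries share 14 mice and both genes share each library's depth and dissection. The other pairs among the 6 genes had r between -0.55 (Aldh7a1 and Shmt2) and 0.28 (Phgdh and Psat1). With Psat1, r was 0.28 for Phgdh and 0.23 for Psph, its neighbours in the pathway.

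**Figure D3:**
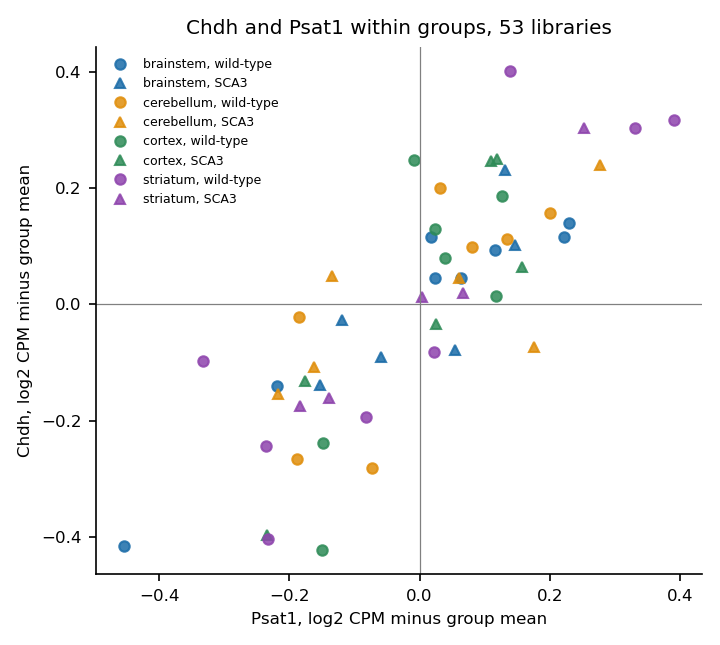
Deviation of Chdh (y axis) against that of Psat1 (x axis), each as log2 CPM minus the mean of its region and genotype group; each point is 1 of 53 libraries, coloured by region and shaped by genotype. Libraries low in one gene are mostly low in the other, with a Pearson r of 0.81.

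The genes most like Chdh in these deviations were Gpr37, an orphan receptor of myelinating cells (r = 0.89 over 53 libraries), Cldn11, the claudin of myelin tight junctions (0.89), and Mag, a myelin-associated glycoprotein (0.89). Nearest to Psat1 were Plekhb1 (0.92), Pip4k2a (0.91) and the carboxypeptidase gene Cpm (0.91). The summed level of 14 mature oligodendrocyte markers, a list that holds Cldn11 and Mag, followed both genes: r was 0.87 for Chdh and 0.88 for Psat1 over all libraries (0.87 and 0.86 without the 2 farthest libraries), with values by region of 0.78 to 0.92 for Chdh and 0.79 to 0.95 for Psat1. In brainstem r was 0.88 and 0.95, and 0.79 and 0.81 without the 4 libraries high in thalamic markers. For the 6 markers of oligodendrocyte precursors r was 0.77 and 0.87, and for the 12 astrocyte markers 0.25 and 0.57. Phgdh had an r of 0.18 with the oligodendrocyte sum, Psph 0.13, Shmt2 -0.09 and Aldh7a1 -0.17.

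Between genotypes most oligodendrocyte markers had log2 fold changes below 0 in brainstem and striatum, where Chdh and Psat1 were higher in SCA3. Of the 14, 13 had log2 fold changes below 0 in SCA3 brainstem (median -0.37, 3 called lower, none higher) and 13 in striatum (median -0.46, 5 called lower), against 9 in cerebellum and 6 in cortex with none called; the median of all genes was within 0.01 of 0. Their sum was 11382 to 23694 CPM in wild-type and 10393 to 17540 CPM in SCA3 brainstem, and 7147 to 20991 and 6645 to 10170 CPM in striatum, so the genotypes overlapped. The 2 striatal libraries high in thalamic markers had the highest oligodendrocyte sums of that region, 15213 and 20991 CPM, where the other 6 wild-type libraries had 7147 to 13124 CPM. Without them 9 of the 14 markers were below 0 in striatum (median -0.10) and none was called by edgeR's likelihood ratio test, where 5 had an unadjusted p below 0.05. The 4 brainstem libraries high in thalamic markers had sums of 10393 to 12306 CPM, below the other 6 wild-type libraries at 19243 to 23694 CPM, and the other 4 SCA3 libraries had 12135 to 17540 CPM. Without them 13 of 14 were still below 0 in brainstem (median -0.39, 3 called lower). Per 1000 CPM of that sum, Chdh had 0.78 to 1.23 CPM in wild-type and 2.12 to 3.25 CPM in SCA3 brainstem, 1.48 to 2.15 and 2.69 to 3.44 in cerebellum, 1.57 to 2.33 and 3.41 to 4.01 in cortex, and 0.87 to 1.58 and 3.25 to 3.70 in striatum. The genotypes did not overlap on this scale either, whose denominator holds the markers called lower in SCA3 brainstem and striatum. Of all genes, 1.45% in brainstem, 0.388% in cerebellum, 0.388% in cortex and 1.86% in striatum had ranges that did not overlap on this scale, with SCA3 the higher group for 1.38%, 0.348%, 0.348% and 1.79%. Psat1 had 8.67 to 13.0 and 16.4 to 23.2 in brainstem, 15.7 to 21.2 and 23.2 to 30.0 in cerebellum, 19.5 to 35.9 and 31.6 to 42.1 in cortex, and 10.3 to 19.7 and 25.7 to 30.2 in striatum, so that cortex alone overlapped. Of 12 astrocyte markers, Aldh1l1 among them, 11 were below 0 in brainstem (5 called lower, median -0.37) and 11 in striatum (6 called lower, median -0.34). Without the libraries high in thalamic markers 11 were below 0 in brainstem (4 called, median -0.39) and 10 in striatum (1 called, median -0.23). Oligodendrocyte precursor markers had log2 fold changes above 0 in 5 of 6 in brainstem and in cortex (medians 0.25 and 0.25, none called) and in 3 of 6 in striatum (median 0.07, 1 called higher). Without the same libraries 5 of 6 were above 0 in brainstem (median 0.22) and 4 of 6 in striatum (median 0.21), and none was called by edgeR's test, where 1 in each region had an unadjusted p below 0.05. The 3 measured choroid plexus markers were above 0 in cerebellum and brainstem (medians 1.26 and 0.21) and below 0 in cortex and striatum (medians -0.61 and -0.19), none called. The part of these shifts in cell type markers in the levels of Chdh and Psat1 was not tested.

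Phgdh varied with the mouse. The mouse accounted for 92.1% of its variance within groups, more than for 99.8% of all genes, where the median was 36.1%. In wild-type mice 9083372 and 9083373 Phgdh was low wherever it was measured, at 14.6 to 21.6 and 14.6 to 19.5 CPM over 4 regions. The SCA3 mouse 7267054 was equally low, at 14.7 to 21.0 CPM. Wild-type mice 7267058 (30.3 to 55.0 CPM over 3 regions) and 9082857 (31.3 to 45.4 CPM over 4) were high throughout. Each of these 5 mice was thus low or high in all of its regions. The 5 other SCA3 mice had 24.5 to 47.6 CPM. With the 4 wild-type and 3 SCA3 mice of the largest mouse number series alone, which include both low wild-type mice and not the low SCA3 mouse, the log2 fold changes were 0.85, 0.81, 0.68 and 0.71, and brainstem passed (FDR 0.013).

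The genes that varied most like Phgdh lay on its own chromosome. They were Rps3a1, a ribosomal protein gene (r = 0.95 over 53 libraries), Scnm1 (0.94) and 5830417I10Rik (0.92). Of its 20 nearest genes, 14 lay on chromosome 3 between 69035292 and 95134050, where Phgdh begins at 98313171, and chromosome 3 holds 4.87% of the placed genes of the table. Among the 20 nearest genes of each of the other 5, between 0 and 2 lay on the gene's own chromosome.

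**Figure D4:**
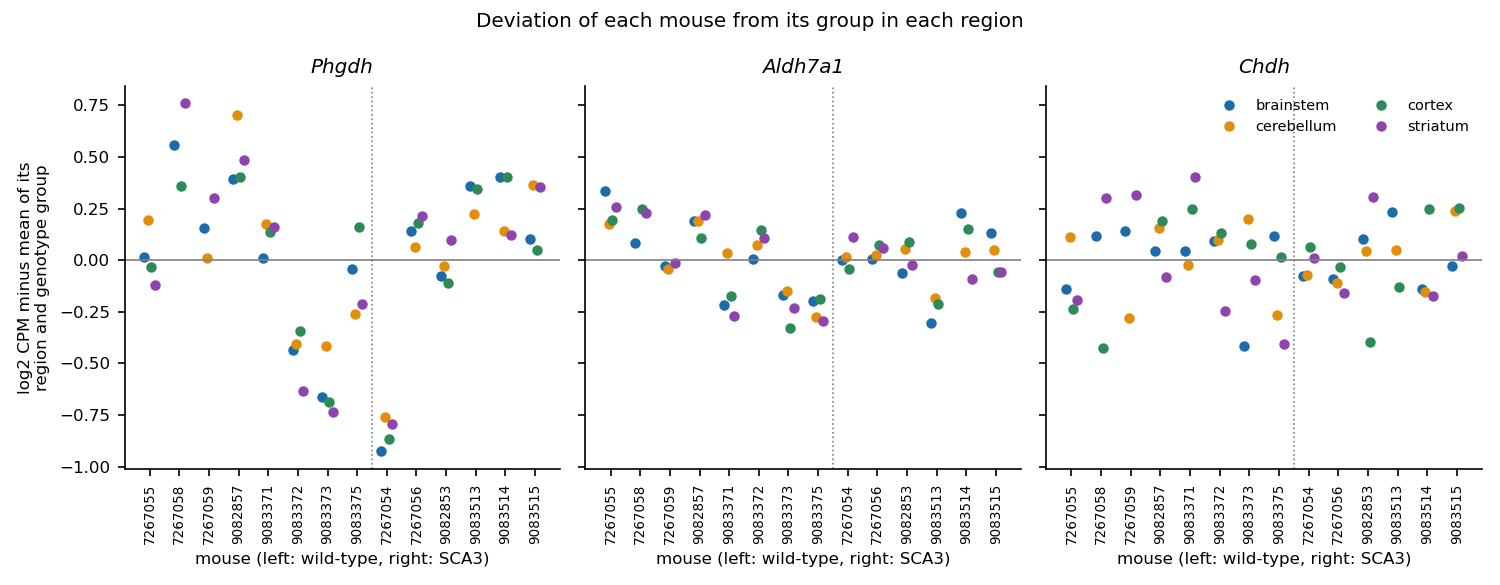
Deviation of Phgdh, Aldh7a1 and Chdh from the mean of their region and genotype group (y axis, log2 CPM) for each of 14 mice (x axis), coloured by region. For Phgdh the regions of a mouse lie together, with mice 9083372, 9083373 and 7267054 below the others, whereas for Chdh the regions of a mouse scatter.

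Aldh7a1 varied with the mouse as well, with 82.5% of its variance within groups (above 99.2% of genes), but over a smaller span: the mean deviation of a mouse ran from -0.24 to 0.24 on the log2 scale, against -0.84 to 0.56 for Phgdh. Wild-type mice 7267055, 9082857 and 9083372 were above their group in 4 of 4 regions, and 9083373 and 9083375 below in 4 of 4. The genes nearest to it were Lonp2, a peroxisomal protease (r = 0.68), Cables1 (0.67) and Cct5, a chaperonin subunit (0.65). The mouse accounted for 19.1% of the variance of Chdh, 32.7% for Psat1, 35.8% for Psph and 45.9% for Shmt2. Nearest to Psph were Stard3 (0.67), Hagh (0.63) and Ddit3, a stress-induced transcription factor (0.62), and nearest to Shmt2 were Ppan (0.78), Ndor1 (0.78) and Porcn (0.77).

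The enzymes, carriers and regulators around these genes were examined in 6 lists with 136 genes, of which 105 had a row. In brainstem none was called higher and 2 lower, in cerebellum none was called, in cortex 1 was called higher, and in striatum 1 was called higher and 18 lower. The shares of all genes called higher and lower were 0.776% and 1.15% in brainstem, 0.0404% and 0.0242% in cerebellum, 0.121% and 0.0323% in cortex, and 2.07% and 5.47% in striatum. The median log2 fold change of the 105 was -0.10 in striatum, -0.03 in cortex and -0.01 in both cerebellum and brainstem, against medians of all genes within 0.01 of 0.

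**Figure D5:**
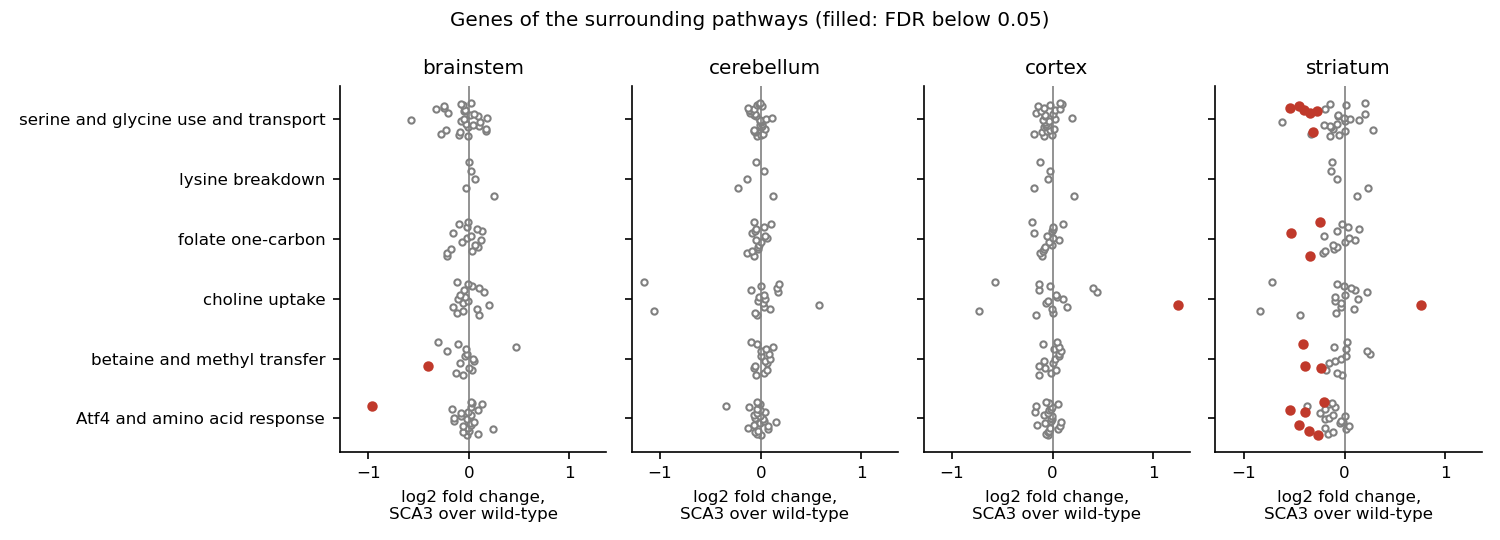
Log2 fold change of SCA3 over wild-type (x axis) for the genes of 6 pathway lists (rows) in 4 regions (panels); each point is a gene and filled points have an FDR below 0.05 over all genes. Filled points lie below 0 in striatum except for Enpp6, which is above 0 in cortex and striatum.

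Among 17 measured genes of choline uptake, phosphatidylcholine and acetylcholine, Enpp6 was the single one called, in cortex and striatum. It encodes a phosphodiesterase that splits glycerophosphocholine and lysophosphatidylcholine to give phosphocholine, and is known from newly forming oligodendrocytes. Cortical Enpp6 had 4.25 to 7.76 CPM in wild-type (median 5.71) and 10.7 to 15.4 CPM in SCA3 (median 14.1), without overlap, and rose by 1.25 (SE 0.20, FDR 1.0e-06 in edgeR). In striatum it had 9.53 to 23.2 CPM (median 12.3) in wild-type and 21.0 to 32.8 CPM (median 22.8) in SCA3 and rose by 0.76 (SE 0.20, FDR 0.0059), or by 1.02 without the libraries of mice 7267058 and 7267059. The striatal call was lost in a fit of the striatal libraries alone (0.76, FDR 0.067) and in the largest mouse number series (0.85, FDR 0.22). Cerebellum had a value of 0.58 (SE 0.20, FDR 1.0) with no overlap of the ranges, and brainstem 0.20 (SE 0.19, FDR 0.70).

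Of 15 genes of betaine and methyl group transfer, 3 were called. Cbs, the enzyme that joins serine to homocysteine, fell in brainstem from 38.7 to 48.4 CPM in wild-type (median 45.0) to 30.4 to 36.0 CPM in SCA3 (median 33.6), a log2 change of -0.41 (SE 0.07, FDR 1.4e-06). Striatal Cbs had 37.8 to 47.0 CPM (median 40.2) and 30.1 to 34.2 CPM (median 31.0), a change of -0.40 (SE 0.07, FDR 3.6e-05). The genotypes overlapped in neither region, and the striatal call was lost in the largest series (-0.38, FDR 0.12). Sardh, which oxidises sarcosine downstream of betaine, fell by 0.41 in striatum (SE 0.09, FDR 0.00089), from 13.4 ± 1.66 to 10.02 ± 0.40 CPM (SD, n = 8 and 5), and did not pass in that series either (FDR 0.43). Aldh9a1, the other betaine aldehyde dehydrogenase, had a striatal change of -0.24 (SE 0.08, FDR 0.045), which was lost without the striatal libraries high in thalamic markers (-0.15, FDR 0.35), in limma-voom without and with the mouse as a block (FDR 0.063 and 0.065), without the 4 brainstem libraries (FDR 0.054), and without mouse 7267054, 7267055, 7267056, 7267058, 7267059, 9083372, 9083373, 9083513, 9083514 or 9083515 (FDR 0.051 to 0.16). Bhmt and Dmgdh, which use betaine and its product in liver, had no row.

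In the folate list 3 of 16 genes were called, all lower in striatum. Mthfd2, a mitochondrial folate dehydrogenase, went from 13.5 ± 3.66 to 9.31 ± 1.63 CPM (SD, n = 8 and 5; log2 -0.53, SE 0.12, FDR 0.0017). Aldh1l1, a cytosolic folate dehydrogenase that is also an astrocyte marker, went from 60.3 ± 8.69 to 47.6 ± 3.97 CPM (log2 -0.34, SE 0.08, FDR 0.0039), and the folate carrier Slc46a1 from 14.6 ± 2.25 to 12.3 ± 1.02 CPM (log2 -0.25, SE 0.08, FDR 0.034). Without the 2 striatal libraries high in thalamic markers Mthfd2 was at -0.36 (FDR 0.0495), Aldh1l1 at -0.23 (FDR 0.092) and Slc46a1 at -0.16 (FDR 0.29). The Mthfd2 call was lost with libraries of RIN 7 or more (FDR 0.071), in the striatal libraries alone (FDR 0.18) and in the largest series (-0.40, FDR 0.41). Slc46a1 was also lost in limma-voom without and with the mouse as a block (FDR 0.057 and 0.055) and without mouse 7267054, 7267056, 7267058, 7267059, 9082853, 9083372, 9083373 or 9083515 (FDR 0.062 to 0.15).

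Serine and glycine use and transport had 28 measured genes, of which 6 fell in striatum. Of the 12 astrocyte markers 11 were below 0 there as well (6 called lower, median -0.34), with sums of 5874 to 8702 CPM in wild-type and 5873 to 6543 CPM in SCA3, and their part in these values was not tested. The 4 with the smallest FDR were transporters: Sfxn5, a mitochondrial carrier (-0.34, SE 0.08, FDR 0.0025), Slc7a10, the exchanger for D-serine and small amino acids (-0.45, SE 0.12, FDR 0.0085), Slc6a9, the glial glycine transporter (-0.54, SE 0.15, FDR 0.0096), and Slc38a1, a glutamine transporter (-0.40, SE 0.12, FDR 0.028). Without the 2 striatal libraries high in thalamic markers none of the 4 passed, with values of -0.22, -0.39, -0.28 and -0.21 (FDR 0.066, 0.052, 0.24 and 0.38). Slc38a1 did not pass in limma-voom without or with the mouse as a block either (FDR 0.053 and 0.050), nor without mouse 7267054, 7267056, 7267058, 7267059, 9083373, 9083514 or 9083515 (FDR 0.069 to 0.14). Slc6a9 was lost without mouse 7267056 or 7267059 (FDR 0.064 and 0.069), and Slc7a10 without 7267056 or 9083515 (FDR 0.053 and 0.073).

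The list of Atf4 and the amino acid response, which includes known targets of Atf4, had 24 measured genes. Slc7a11, the cystine and glutamate exchanger, fell in brainstem from a range of 39.9 to 103.8 CPM in wild-type (median 52.0) to 24.8 to 42.4 CPM in SCA3 (median 26.5), a log2 change of -0.96 (SE 0.18, FDR 7e-05). The call was lost in the largest mouse number series (-0.65, FDR 0.094). In striatum 6 genes of the list fell, among them Sesn2 (-0.54, SE 0.12, FDR 0.0016), Pck2 (-0.39, SE 0.10, FDR 0.0043) and Atf4 itself (-0.35, SE 0.10, FDR 0.019), and none of the 24 was called higher in any region. Without the striatal libraries high in thalamic markers Sesn2 and Pck2 still passed (-0.47 and -0.37, FDR 0.021 and 0.027) and Atf4 did not (-0.25, FDR 0.21). Sesn2 and Pck2 did not pass with libraries of RIN 7 or more (FDR 0.059 and 0.060), in the striatal libraries alone (FDR 0.15 and 0.22) or in the largest series (FDR 0.54 and 0.10). Atf4 was also lost without mouse 7267054, 7267056, 7267058, 7267059 or 9083515 (FDR 0.067 to 0.12), and Pck2 without 9083515 (FDR 0.050). Of 5 genes of lysine breakdown none was called in any region (likelihood ratio test in edgeR).

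The number of striatal calls varied with the libraries fitted. The 6 thalamic markers were all below 0 there (median log2 fold change -1.89, 4 called), with summed levels of 56.0 to 1682 CPM in wild-type and 58.3 to 199 CPM in SCA3. Of the 105 pathway genes, 7 were called in striatum without the libraries of mice 7267058 and 7267059, an alternative chosen after seeing the data, where 19 were called with them. Leaving out SCA3 mouse 7267056 or 9083515 gave 8, and leaving out 7267054 gave 10. Without wild-type mouse 7267059, 7267058 or 9083373 the count was 9, 10 or 11, and without 9082857 or 9083371 it was 29 or 31. Both in libraries of RIN 7 or more and in the striatal libraries alone 4 were called. Of the 14 genes named here for striatum, Cbs, Enpp6, Mthfd2, Pck2, Sardh and Sesn2 passed without the libraries of mice 7267058 and 7267059. Cbs, Sardh, Enpp6 and Slc7a10 passed with RIN of 7 or more, and Cbs and Sardh passed in the striatal libraries alone. None of the 14 passed edgeR's test in the largest series (FDR 0.10 to 0.87). Astrocyte and oligodendrocyte markers moved in striatum too, as given above. All 6 striatal markers were above 0 there (median 0.45, none called), and of 3 cerebellar markers 2 were below 0 (median -0.56, 1 called lower). The part of these markers in the striatal calls was not tested. In brainstem 5 of the 6 thalamic markers were above 0 (median 0.26, none called), and 4 of 6 without the 4 libraries high in them (median 0.03). Without the striatal libraries of mice 7267058 and 7267059 the striatal differences of Chdh, Psat1 and Enpp6 were larger, as given above.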

How the data were processed

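The authors deposited 1 table of raw counts, with a row per gene and a column per library. They had prepared poly-A libraries without strand information, aligned trimmed read pairs to GRCm38 with STAR 2.3.0e, counted RefSeq genes with HTSeq 0.6.1 and kept genes averaging more than about 4 CPM (the lowest mean was 4.07). Here edgeR 4.0.16 in R 4.3.3 fitted all 53 libraries in 8 region and genotype groups after TMM scaling, as in the study's methods, with likelihood ratio tests. Each gene had 1 dispersion, its spread between libraries, which all 8 groups shared. FDRs are Benjamini-Hochberg values over 12372 genes, and 0.05 was the threshold. Standard errors came from the fitted negative binomial model, and 95% intervals from the normal distribution. For CPM the totals were scaled by TMM, and a prior count of 2 was added before taking logs. The script was tested on simulated data. Totals were 31.7 to 76.7 M counts, and the 6 genes had 218 to 19906 counts per library.

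The genes and lists were chosen with earlier results of these data known. Named besides the 6 genes were, per pathway list, at most 4 of the genes called in any region, taken by smallest FDR, and the 3 genes nearest to each by Pearson r. Bhmt, Dmgdh and the absent markers are named for having no row.

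Mouse numbers pair the libraries because 1 mouse gave several regions; limma 3.58.1 estimated a correlation of 0.14 within a mouse. Alternatives were edgeR's quasi-likelihood test, DESeq2 1.42.0, limma-voom without and with the mouse as a block, a fixed mouse block in wild-type libraries, RLE size factors, at least 10 counts in every library (12337 genes), RIN as a covariate, RIN of at least 7 (49 libraries), the mouse number series as a covariate, the largest series alone (27 libraries), a region's libraries alone, leaving out each mouse, and, chosen after seeing the data, leaving out the 2 striatal or the 4 brainstem libraries highest in thalamic markers.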

Additional observations from a re-analysis of the deposited data

Results flagged for a closer look

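In 82 groups of libraries, 48 for the 6 genes and 34 for the named pathway genes, the highest and lowest library were compared with the rest by Dixon's criterion, which chance meets in about 5% of groups. It was met in 4 (4.88%). In SCA3 cerebellum Aldh7a1 had 72.9 CPM in mouse 9083513, below 83.7 to 85.9 CPM in the other 5 mice. In wild-type brainstem Slc7a11 had 103.8 CPM in mouse 7267059, above 39.9 to 61.9 CPM in the others. Striatal Cbs had 34.2 CPM in SCA3 mouse 7267054 against 30.1 to 31.1 CPM in the others, and striatal Mthfd2 had 12.1 CPM in SCA3 mouse 9082853 against 8.24 to 9.30 CPM. The last 2 lie on the side of the wild-type values.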

How the results depend on the processing

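No called value changed sign. Of the values called in no fit, 9 did under some alternative, among them Shmt2 in brainstem (0.01, down to -0.16) and Phgdh in wild-type brainstem against striatum (-0.19, up to 0.01). For Chdh the call held in every region under every alternative, except in cerebellum in the largest series of mouse numbers (0.70, FDR 0.093). Since Chdh was chosen with its calls known, this describes the fits and adds no evidence for the gene. Of the 6 genes, 1 was called in cortex with limma-voom, without and with the mouse as a block. Against limma-voom without it, the block changed no count by more than 1.5 times and lost none of the calls of the 14 striatal pathway genes named; the calls it added between wild-type regions are given above. In the largest series (27 libraries) 0 of the 6 were called in cerebellum, 1 in cortex and 1 in striatum, with 1 pathway gene in brainstem and 0 in striatum. In fits of 1 region's libraries, 2 of the 6 were called in cerebellum and 1 in striatum, and 4, 1, 2 and 4 pathway genes in brainstem, cerebellum, cortex and striatum. With libraries of RIN 7 or more, 4 pathway genes were called in striatum; without the 2 striatal libraries high in thalamic markers, 7 in striatum and 2 in cortex. These fits held fewer libraries in all, and a fit of 1 region kept every library of its contrast but estimated the spread of each gene from that region alone. The cause of the changes was not tested.

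Leaving out 1 mouse at a time gave 2 of the 6 in brainstem, 1 in cerebellum, 1 to 2 in cortex (1 without 7267054, 7267056, 9083514 or 9083515) and 2 in striatum, 18 to 21 wild-type region pairs, and 0 for genotype by region. Pathway genes called were 2 in brainstem, 0 in cerebellum, 1 to 2 in cortex (2 without 7267059) and 8 to 31 in striatum, namely 8 without 7267056 or 9083515, 9 without 7267059, 10 without 7267054 or 7267058, 11 without 9083373, 29 without 9082857 and 31 without 9083371. Over the other alternatives the wild-type region pairs called numbered 17 to 24. Among single genes, 914 of the values from the alternatives other than leaving out a mouse stayed on the same side of the threshold, 72 lost their call and 15 gained one.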
